A study of Sus scrofa with 12 samples.

Results

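Expression was examined for 10 genes that mark T cells and natural killer (NK) cells, namely CD2, CD3D, CD3E, CD3G, CD4, CD8A, LCK, ZAP70, NKG7 and GZMB, in infarcted pig hearts. The 10 were a named list, and the rule used no measured value. Gene symbols were paired with 15623 of the 35682 gene identifiers in the count files, and 8 of the 10 genes had an identifier. CD3G and ZAP70 had none by that pairing and were not analysed here. All 8 passed the filter on low counts and were among the 13844 genes tested.

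RNA sequencing was performed on 12 libraries from 6 female Yorkshire pigs aged 10 to 12 weeks, and each animal gave 1 border zone (BZ) library and 1 remote zone library, both labelled Mid. In every animal a balloon closed the left anterior descending coronary artery for 60 min before reperfusion (ischemia-reperfusion injury, IRI), and 3 immunosuppressive drugs were given from post-IRI day 9. These were tacrolimus at 0.75 mg/kg/day, prednisolone at 20 mg/day and mycophenolate mofetil at a daily dose of 500 mg. On post-IRI day 14 the chest was opened and the heart received either vascular organoids, made of human endothelial progenitor cells and smooth muscle cells and held in place by fibrin glue, or the glue alone as control. Hearts were harvested 28 days later. The BZ was the tissue next to the infarct and the remote zone was the posterior wall. The labels give the region and the animal number of a library but not its treatment, so treatment was not compared, and all 6 animals, infarcted and immunosuppressed alike, enter each region. No uninjured heart was analysed here. The grafted cells were human, the host was treated with 3 immunosuppressive drugs, and each level below refers to reads assigned to pig genes.

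T cells recognize antigen through the T cell receptor, whose signal is carried by the CD3 chains. The kinase LCK, held by the coreceptors CD4 and CD8, phosphorylates these chains, and ZAP70 then binds to them. Cytotoxic T cells and NK cells kill by releasing granules that hold perforin and granzymes such as GZMB, and NKG7 is a protein of the granule membrane. In pigs, NK cells commonly carry CD8A and CD2 as well, so neither gene marks T cells alone. In an infarcted heart, lymphocytes enter the injured wall along with macrophages and take part in healing. Of the drugs, tacrolimus inhibits calcineurin and thereby keeps NFAT out of the nucleus, mycophenolate blocks the synthesis of guanine nucleotides in dividing lymphocytes, and prednisolone acts through the glucocorticoid receptor.

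The 8 genes lie on 6 chromosomes of the pig genome Sscrofa11.1 by the RefSeq annotation. CD3E (chr9:45619730-45633972, plus strand), CD3D (chr9:45640475-45644153, minus strand) and CD3G (chr9:45645243-45656779, plus strand) are neighbours, and CD3D and CD3G start 1089 bases apart and point away from each other. CD2 is at chr4:103963802-103976971 (minus strand), CD4 at chr5:63892129-63918547 (minus strand) and CD8A at chr3:57999228-58029768 (plus strand). LCK is at chr6:88719886-88745922 (plus strand) and NKG7 at chr6:58496089-58497827 (plus strand), and GZMB is at chr7:74705499-74708781 (plus strand). The 250 bases before the annotated starts of GZMB (chr7:74705249-74705498, plus strand), NKG7 (chr6:58495839-58496088, plus strand) and CD2 (chr4:103976972-103977221, minus strand) are shown, each 5′ to 3′ on its gene's strand, because GZMB and NKG7, both granule genes, had fold changes of opposite sign and CD2 had the largest fold change of the cell surface genes. Capitals mark matches, on either strand, to the letters AGGAAG (ETS factors), TGTGGT (RUNX factors), TGANTCA (AP-1), GGAAAA (NFAT) and TATAAA (the core promoter element that TBP binds).
GZMB: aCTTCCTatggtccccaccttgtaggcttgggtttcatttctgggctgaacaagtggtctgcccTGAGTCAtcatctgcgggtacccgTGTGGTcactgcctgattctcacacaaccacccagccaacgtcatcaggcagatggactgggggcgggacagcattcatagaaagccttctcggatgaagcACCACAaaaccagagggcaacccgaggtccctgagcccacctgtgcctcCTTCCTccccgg
NKG7: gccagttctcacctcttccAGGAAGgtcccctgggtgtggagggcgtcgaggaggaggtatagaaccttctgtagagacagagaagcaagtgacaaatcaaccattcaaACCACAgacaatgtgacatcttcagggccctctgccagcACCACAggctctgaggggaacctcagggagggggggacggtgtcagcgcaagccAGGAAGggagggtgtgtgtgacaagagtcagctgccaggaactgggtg
CD2: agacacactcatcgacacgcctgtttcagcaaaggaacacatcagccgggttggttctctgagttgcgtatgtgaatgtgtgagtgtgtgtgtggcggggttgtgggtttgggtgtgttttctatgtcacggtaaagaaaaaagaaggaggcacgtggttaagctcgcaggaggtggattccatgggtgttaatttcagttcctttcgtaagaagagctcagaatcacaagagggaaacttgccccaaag

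GZMB and NKG7 each held 2 ETS and 2 RUNX matches in this window, and GZMB also held 1 AP-1 match, 186 bases before its start. CD2 held none of the 5 motifs. Over 19556 promoter windows of the same length, 25% held the ETS letters, 14% the RUNX letters, 5.27% the AP-1 letters, 21% the NFAT letters and 9.77% the TATA letters. A match describes the letters and is no evidence of binding.

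The depth behind the values was 15130210 to 30526110 counts on genes per BZ library and 20091415 to 31618680 per remote zone library. Levels are given as CPM, the count scaled to a common library size with TMM factors. The BZ libraries of animals 1022 and 3622 stood apart from the rest. That of animal 1022, which held the highest BZ value of several genes below, had 9513 CPM of summed cardiomyocyte markers against 33658 to 51501 in the other 5 BZ libraries, 66533 CPM of fibroblast and matrix markers against 2992 to 11275, and 2480 CPM of smooth muscle markers against 281 to 657. It also had the highest TMM scaling factor and the lowest share of counts on mitochondrial genes (5.69%) of the 12 libraries. That of animal 3622 had a count above 0 for 28024 genes against 16932 to 20148 in the other 11, and the remote zone library of the same animal had the lowest TMM scaling factor (0.671) and 33.5% of its counts on mitochondrial genes. Cardiomyocyte markers were present in every library, with a summed level of 9513 to 51501 CPM in the BZ and 41233 to 76570 CPM in the remote zone, and the sum was lower in the BZ of 6 of 6 animals. Of 7 fibroblast and matrix markers, 6 were called higher in the BZ by edgeR, where 2.07% of all genes were called, and 1 with a replicate block for the animal. T cell and NK cell transcripts were scarce. Of the 8 genes, NKG7 had the highest median CPM in both regions and GZMB the lowest, and only NKG7 (40.0), CD4 (11.4) and CD2 (11.0) passed 10 CPM in any library. In bulk tissue, fewer cells of a type and less RNA per cell cannot be told apart.

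Levels were also set per kilobase of 1 RefSeq transcript of each gene, although reads were counted over whole genes. CD8A has 9234 exon bases against 2166 in that transcript, and LCK has 2639 against 2100. Their places in the orders below thus depend on the length chosen. The BZ medians were 3.81 CPM per kb for NKG7, 2.58 for CD2, 2.03 for CD3D and 1.35 for CD4. They were 1.04 for CD3E, 0.993 for LCK, 0.845 for CD8A and 0.155 for GZMB. In the remote zone the same quantity was 2.66 for NKG7, 1.44 for CD3D, 1.29 for CD2, 1.08 for CD3E, 1.05 for CD4, 0.779 for LCK, 0.656 for GZMB and 0.628 for CD8A. NKG7 thus headed both orders, ahead of the CD3 chains. Neighbours in these orders overlapped in their ranges over animals, with the exception of NKG7 (2.10 to 4.31 CPM per kb) and CD3D (1.06 to 1.92 CPM per kb) in the remote zone. GZMB was the lowest in the BZ, at 0 to 0.972 CPM per kb.

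Border zone and remote zone were compared to ask whether T cell and NK cell transcripts were higher beside the infarct at the end of the study. Of the 8 genes, 7 had a positive log2 fold change (BZ over remote zone), which is 87.5%, against 53.3% of all genes tested. Their median log2 fold change was 0.56, against 0.04 for all genes tested, and it was 0.37 with a replicate block for the animal and 0.27 without the BZ library of animal 1022. By the quasi-likelihood test of edgeR, with p-values adjusted by the Benjamini-Hochberg method and called under 0.05, none of the 8 was called, and 2.07% of all genes were. At an unadjusted p under 0.05 there were 2 of 8, CD2 and NKG7, a share near the 24.7% of all genes that passed at that level. By the Wald test of DESeq2, which called 10.2% of its genes, none of the 8 was called either, and with the animal as a replicate block, where edgeR called 0.296%, the count was again 0. GZMB was the exception in sign, being lower in the BZ of every animal. Without the BZ library of animal 1022 the positive values numbered 6 of 8, and without the BZ or without the remote zone library of animal 3622 they numbered 7 of 8.

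**Figure D1:**
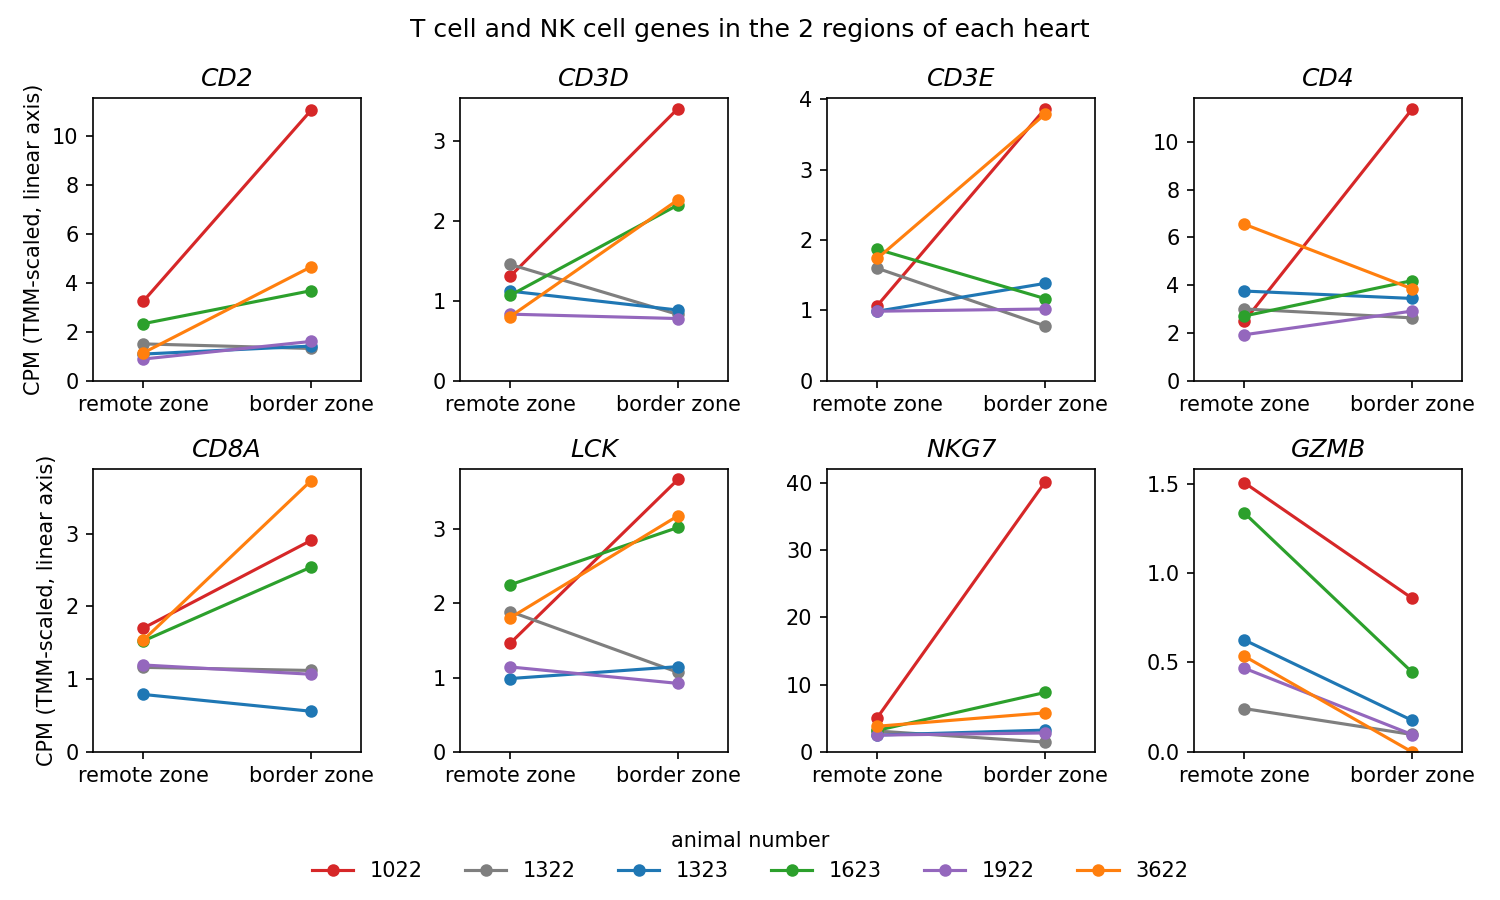
CPM (TMM-scaled, linear axes that start at 0 and differ between panels) of the 8 genes in the remote zone and the border zone, with 1 line for each of 6 animals. GZMB slopes down along every line, with 0.242 to 1.50 CPM in the remote zone and 0 to 0.859 CPM in the border zone, while the other 7 panels hold lines in both directions and animal 1022 reaches 40.0 CPM for NKG7.

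Among the genes of the receptor complex, CD3D had 0.777 CPM at the lowest, a median of 1.54 and 3.40 at the highest in the BZ, and 0.802, 1.09 and 1.45 CPM in the remote zone. Its level was higher in the BZ of 3 animals and lower in 3. The 3 BZ libraries above the whole remote range were those of animals 1022, 1623 and 3622. The log2 fold change was 0.65 (SE 0.40, n = 6 animals, adjusted p = 0.331 by edgeR with Benjamini-Hochberg adjustment), and it was 0.38 without animal 1022 and 0.32 without its BZ library alone. CD3E, another signalling chain of the complex, had 0.779, 1.28 and 3.87 CPM in the BZ and 0.988, 1.33 and 1.87 CPM in the remote zone. The regions overlapped for CD3E, with the remote median slightly the higher. The BZ libraries of animals 1022 (3.87) and 3622 (3.79) lay above the remote range and that of 1322 (0.779) below it. Its log2 fold change was 0.54 (SE 0.44, edgeR adjusted p = 0.463), and it was 0.16 with animal 1022 left out and 0.33 with animal 3622 left out.

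The coreceptors bind the antigen-presenting molecules, class II in the case of CD4 and class I in the case of CD8. CD4 had 2.63 CPM at the lowest, a median of 3.65 and 11.4 at the highest in the BZ, and 1.92, 2.86 and 6.55 CPM in the remote zone. The BZ library of animal 1022 alone held the high value, and the next BZ library had 4.19 CPM. CD4 was higher in the BZ of 3 animals, with a log2 fold change of 0.48 (SE 0.40, edgeR adjusted p = 0.470), and the value was -0.08 without animal 1022 and 0.81 without animal 3622. CD4 is also carried by plasmacytoid dendritic cells, and the summed level of IRF7, TCF4 and IRF8, the 3 of 5 listed markers of those cells that had an identifier, ran from 20.9 to 114 CPM in the BZ, highest in animal 1022, and from 20.6 to 36.2 CPM in the remote zone. The BZ library of animal 1022 was also the highest for macrophage markers and for fibroblast and matrix markers. The sum may therefore not come from plasmacytoid dendritic cells alone, and their part in the CD4 values was not tested.

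CD8A had 0.559, 1.83 and 3.73 CPM in the BZ and 0.790, 1.36 and 1.70 CPM in the remote zone. It was higher in the BZ of animals 1022, 1623 and 3622 and lower in the other 3, as for CD3D. The log2 fold change was 0.59 (SE 0.43, edgeR adjusted p = 0.415), and it was 0.36 without animal 3622 and 0.32 without its BZ library alone. CD4 counts outnumbered CD8A counts in all 12 libraries, by a factor of 1.03 to 6.16 in the BZ and of 1.47 to 4.75 in the remote zone. These ratios are not corrected for transcript length, and the region with the higher ratio differed from animal to animal. LCK, the kinase that starts the receptor signal, had 0.922, 2.08 and 3.67 CPM in the BZ and 0.988, 1.64 and 2.25 CPM in the remote zone. Its log2 fold change was 0.45 (SE 0.40, edgeR adjusted p = 0.511), and it was higher in the BZ of 4 animals. Without animal 1022 the LCK value was 0.20.

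CD2, an adhesion receptor of T cells and NK cells, had the largest difference among the cell surface genes. In the BZ its level was 11.0 CPM in animal 1022, 4.65 in 3622, 3.67 in 1623, 1.60 in 1922, 1.41 in 1323 and 1.31 in 1322. In the remote zone the same animals had 3.25, 1.14, 2.33, 0.884, 1.09 and 1.50 CPM. The BZ level was the higher one in 5 of 6 animals, all but 1322, although the regions overlapped. The log2 fold change was 1.21 (SE 0.54, edgeR adjusted p = 0.190), and the fit with a replicate block for the animal gave 0.93 (SE 0.33, edgeR adjusted p = 0.116). Over 17 alternative fits the CD2 value ran from 0.55 to 1.55, with adjusted p from 0.108 to 0.555, and the lowest was that without the BZ library of animal 1022.

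NKG7 had the largest positive value of the 8. In counts, the BZ library of animal 1022 held 1212 NKG7 reads, and those of 1322, 1323, 1623, 1922 and 3622 held 30, 110, 257, 58 and 95. The remote zone libraries of these animals, in the same order, held 129, 64, 76, 84, 48 and 57. On the CPM scale this was 1.46 at the lowest, a median of 4.52 and 40.0 at the highest in the BZ, and 2.50, 3.15 and 5.11 in the remote zone. Animal 1022 alone supplied 64.4% of the summed BZ level. The log2 fold change was 1.63 (SE 0.66, edgeR adjusted p = 0.158), with the BZ higher in 5 of 6 animals, and it was 0.55 without animal 1022 and 0.39 without its BZ library alone. Adjusted p over 17 alternatives ran from 0.0755 to 0.662, so no setting called NKG7.

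GZMB, the granule protease that triggers death of the target cell, had the opposite sign. Its BZ counts were 26 in animal 1022, 2 in 1322, 6 in 1323, 13 in 1623, 2 in 1922 and 0 in 3622, which sum to 49. The remote zone counts of these animals were 38, 5, 19, 35, 9 and 8, which sum to 114. The BZ value was the lower one in all 6 animals under TMM scaling, under library totals and under DESeq2 size factors, and 11.1% of all genes tested were lower in the BZ of 6 of 6 animals. The regions overlapped, since the BZ level of animal 1022 (0.859 CPM) was above the remote level of 4 animals.

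The fitted log2 fold change of GZMB was -1.41 (SE 0.69, edgeR adjusted p = 0.218). The fit with a replicate block for the animal gave -1.70 (SE 0.47, edgeR adjusted p = 0.0845), and over 13 alternatives the adjusted p ran from 0.0845 to 0.338, so GZMB was not called by any of them. Without the BZ library of animal 1022 the value was -2.14. The count of 0 in the BZ library of animal 3622 allows up to 3 counts, or 0.183 CPM, by counting error alone. Before TMM scaling, GZMB reached the 0.419 CPM that the filter asks for in 2 BZ and 4 remote zone libraries, the minimum of 6 in all, and it drops out of the test when animal 1022 or 1623 is left out. Its counts are also uncertain because 227 bases of its 884-base transcript match, at 93.8% identity, the gene LOC100156469 elsewhere in the genome. No such match over 90% was found for the other 7 genes.

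**Figure D2:**
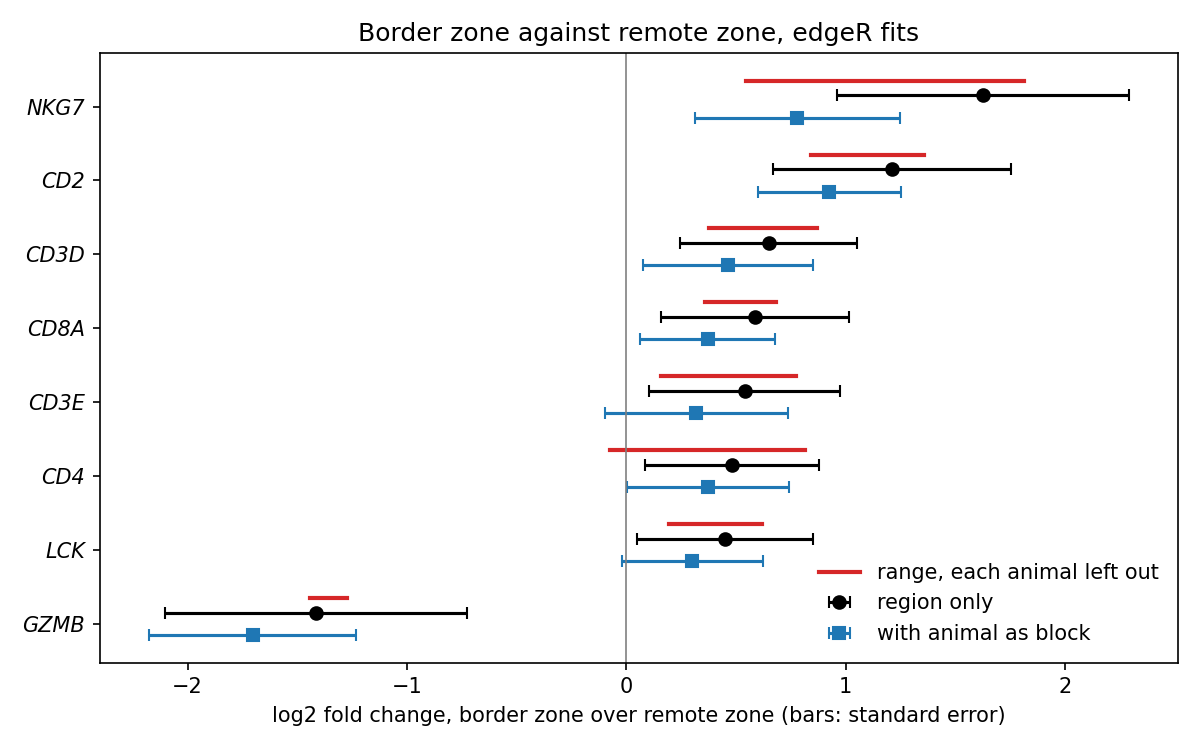
Log2 fold change (border zone over remote zone) of the 8 genes by edgeR with region as the only term (black circles) and with the animal as a replicate block (blue squares), with bars of 1 standard error. The red lines span the values with each animal left out in turn, from 0.55 to 1.81 for NKG7 and from -0.08 to 0.81 for CD4, and GZMB is the only gene left of 0 in both fits.

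Ratios of counts within a library do not depend on how libraries were scaled. NKG7 reads outnumbered GZMB reads by 15 to 46.6 in the 5 BZ libraries where GZMB was above 0. In the 6 remote zone libraries the factor was 2.40 to 12.8. These genes were set against each other after their opposite signs were seen, so the ratio restates those signs and adds no separate evidence. The lowest BZ ratio and the highest remote zone ratio were both those of animal 1322, with 2 and 5 GZMB reads. For each 100 CD3E reads there were 22.2, 12.5, 12.8, 38.2, 9.52 and 0 GZMB reads in the BZ of animals 1022, 1322, 1323, 1623, 1922 and 3622. In the remote zone there were 141, 15.2, 63.3, 71.4, 47.4 and 30.8. GZMB was the lower in the BZ of 6 of 6 animals relative to CD3E too. Several of these ratios rest on fewer than 10 GZMB reads, and their counting error is large.

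The sign of the difference was not the same in all animals. In animal 1022, 7 of the 8 were higher in the BZ, with a median within-animal difference of 1.53 on the log2 CPM scale. Animal 3622 had 6 of 8 higher (median 0.94) and animal 1623 had 6 of 8 (median 0.63). Animals 1323 and 1922 had 4 of 8 each, with medians of 0.04 and -0.02, and animal 1322 had 0 of 8, with a median of -0.76. Animals 1022, 1623 and 3622 thus had the largest positive medians, and their BZ libraries held the 3 highest BZ levels of CD2, CD3D, CD4, CD8A, LCK and NKG7. The treatment of these animals was not used here. Across the 12 libraries, the log2 CPM of each gene followed the mean of the other 7 with Pearson's r of 0.923 for NKG7, 0.890 for CD2 and for LCK, 0.875 for CD3D, 0.762 for CD8A, 0.756 for CD3E and 0.675 for CD4, while r was 0.113 for GZMB. These are descriptions over libraries that share animals, regions and depth.

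The genes most like the mean profile of the 8 were found by Pearson's r over the 12 libraries among 11718 genes with a symbol. They were CORO1A (r = 0.981), SPN (0.968), THEMIS2 (0.959), ALOX5 (0.959), PLEK (0.956), IPCEF1 (0.949), CD180 (0.949) and SYK (0.942). CORO1A, an actin-binding protein of blood cells, had 4.42 to 37.1 CPM in the BZ and 4.16 to 10.4 in the remote zone. SPN encodes CD43, a sialoglycoprotein of leukocytes, and SYK is the kinase related to ZAP70 that B cells and myeloid cells use. None of these 8 neighbours was called between regions, with edgeR adjusted p from 0.120 (SYK) to 0.365 (IPCEF1).

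Other genes of T cell and NK cell pathways were taken from 6 lists of 92 symbols, of which 55 gene identifiers passed the filter. None was called in either direction, with or without the block, against the 2.07% of all genes tested. A positive log2 fold change was found for 45 of 55, with a median of 0.53, and for 42 with the block. In the list of the T cell receptor complex and its proximal signalling, 10 of 11 were positive, with a median of 0.84 and, with the block, of 0.53. LCP2, the adaptor SLP-76, had 1.63 (edgeR adjusted p = 0.118), FYB1, which binds it, had 1.47 (edgeR adjusted p = 0.124), and TRAT1, an adaptor that stabilizes the receptor complex, had the smallest value at -0.13. LCP2 ran from 1.41 to 22.3 CPM in the BZ, highest in animal 1022, and from 1.20 to 2.94 in the remote zone.

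Of 9 transcription factors tested, 9 had positive values, with a median of 0.39, and 8 with a replicate block for the animal. The exception, TBX21 (T-bet, a factor of cytotoxic and helper T cells), had 0.34, or -0.20 with the block, was higher in the BZ of 1 animal only and is named here after its values were seen. RUNX3, a factor of cytotoxic T cells, had 1.70 (edgeR adjusted p = 0.0989), and IKZF1, the lymphoid factor Ikaros, had 1.25. FOXP3, which defines regulatory T cells, had the smallest, 0.11 (SE 0.38), with 0.388 to 0.672 CPM in the BZ and 0.194 to 0.832 CPM in the remote zone. Of 8 checkpoint receptors only HAVCR2 (TIM-3), with 2.12 and edgeR adjusted p = 0.110, and TNFRSF9, with 0.58, passed the filter. TIM-3 is also carried by macrophages. CTLA4, which restrains T cells and is named here after its values were seen, reached at most 8 counts in any library.

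The cytotoxic granule and NK receptor list split. Of its 11 tested identifiers 7 were positive, with a median of 0.21, and with the block 5 were, with a median of -0.02. The largest values belonged to TYROBP (1.52) and FCER1G (1.42), adaptors that macrophages also use, with BZ levels up to 70.3 and 54.4 CPM in animal 1022. GNLY (granulysin) had the smallest value, -0.38 (SE 0.54), with a BZ median of 6.45 CPM and a remote median of 11.5 CPM. Beyond the rule for naming genes, the other 8 tested identifiers of the list had 1.10 for KLRK1 (NKG2D, an activating receptor), 0.70 for CST7, 0.58 for CD226, 0.21 for CD244, 0.06 for GZMA, -0.08 for GZMH, -0.09 for CTSW (cathepsin W) and -0.24 for PRF1 (perforin), none of them called. The BZ level was the higher one in 2 of 6 animals for PRF1, GZMH and GNLY, in 3 for CTSW, CST7, CD244 and GZMA, in 4 for KLRK1 and in 5 for CD226, and in none for GZMB. These GZMA values are those of ENSSSCG00000016903. A second GZMA identifier, ENSSSCG00000016902, lay under the filter, with 0 to 1.69 CPM in the BZ, highest in animal 1022, and 0 to 0.114 CPM in the remote zone, and was higher in the BZ of 5 animals, so no single direction is given for GZMA.

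In the cytokine and chemokine list 9 of 11 were positive, with a median of 0.81. IL2RG, the common chain of several interleukin receptors, had 1.34 (edgeR adjusted p = 0.148). IL15, a survival factor for NK cells, had the smallest value, -0.38. Interferon gamma, IFNG, also named after its values were seen, reached at most 4 counts in any library. The list on the immunosuppressive drugs held their targets and also genes that act after them, such as the NFAT genes. Of its 11 tested genes 8 were positive, with a median of 0.12. FKBP1A, listed as well and named beyond the rule, had no identifier and so no value. IMPDH1, one of the enzymes that mycophenolate inhibits, had 1.36 (edgeR adjusted p = 0.105), NFATC2 had 1.04, and the calcineurin subunit PPP3CB had the smallest value, -0.30.

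**Figure D3:**
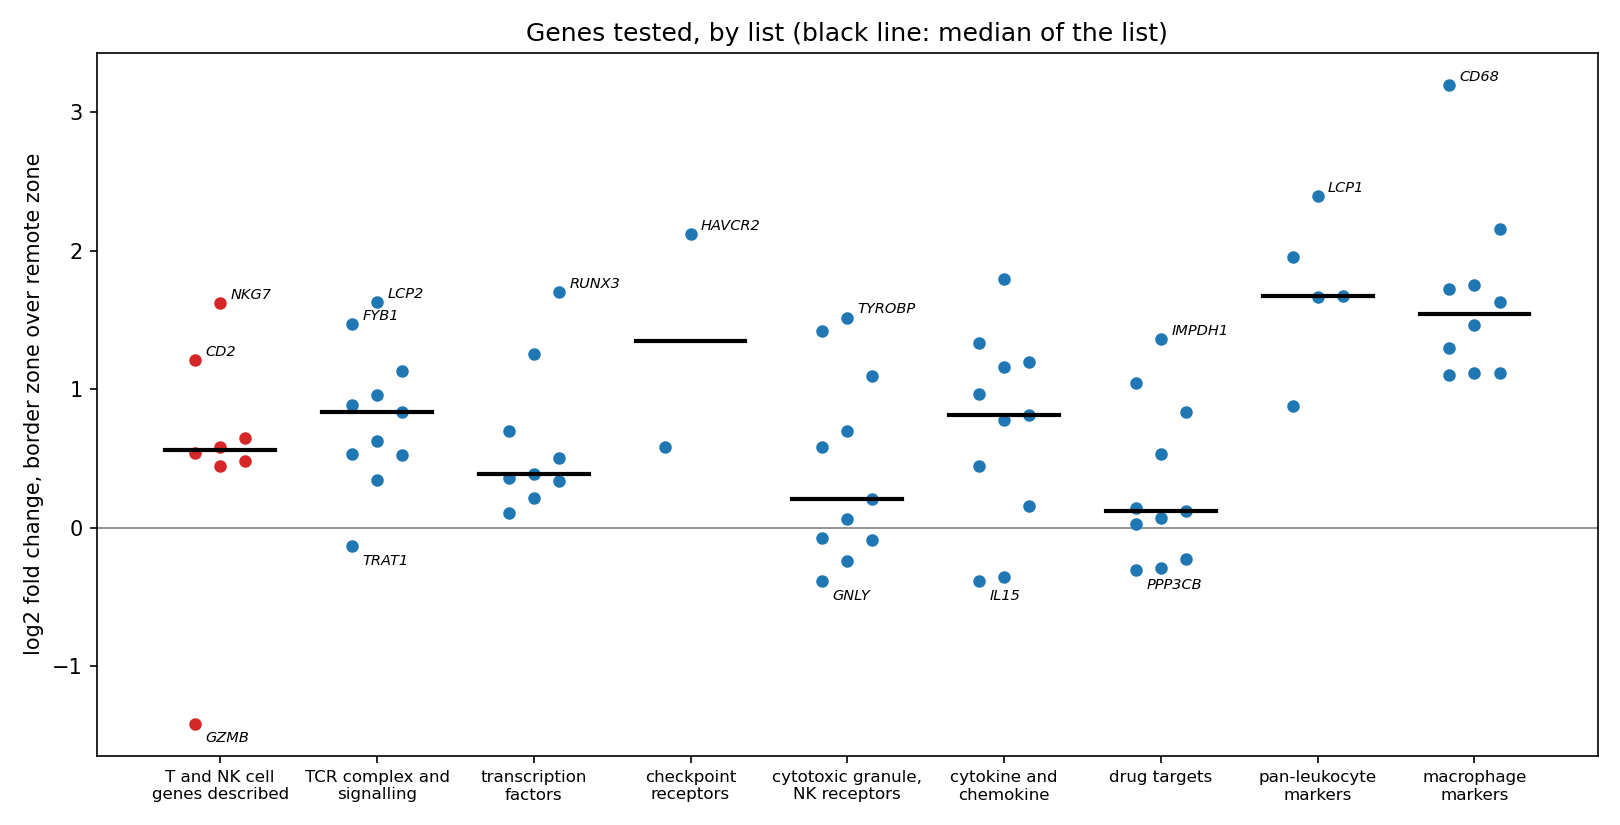
Log2 fold change (border zone over remote zone, edgeR) of each gene tested, by list, with a black line at the median of the list. The 8 genes described here (red) have a median of 0.56 with GZMB at -1.41, the receptor signalling list has 0.84, the cytotoxic list 0.21 and the macrophage markers 1.55. With a replicate block these medians are 0.37, 0.53, -0.02 and 0.99.

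Markers of other immune cells varied among the BZ libraries too. All 10 macrophage markers had positive values, against 53.3% of all genes tested, with a median log2 fold change of 1.55 (0.99 with the block). None was called by edgeR, where 2.07% of all genes were. Of all genes 24.7% had an unadjusted edgeR p under 0.05, and all 10 of these markers did. Their summed level ran from 136 to 1555 CPM in the BZ, highest in animal 1022, and from 123 to 263 CPM in the remote zone. The sum of 5 markers shared by all leukocytes ran from 51.8 to 832 CPM in the BZ and from 41.2 to 69.5 CPM in the remote zone, and that of 6 B cell and plasma cell markers from 5.39 to 35.5 CPM and from 4.21 to 5.55 CPM. Most of the latter sum was JCHAIN, the joining chain of antibodies that plasma cells make, with a median of 9.05 CPM in the BZ and 3.94 CPM in the remote zone, higher in the BZ of 6 of 6 animals, whereas the B cell genes PAX5 and CD79B were higher there in 2 and 3 animals. All 3 are named after their values were seen. The sum of CD2, CD3D and CD3E, all 3 of them among the genes described, ran from 2.92 to 18.3 CPM in the BZ, with a median of 5.36, and from 2.70 to 5.62 CPM in the remote zone, with a median of 4.12. The part of these other cells in the differences was not tested. Of 6 neutrophil markers 4 had an identifier, their sum was 0.437 to 7.67 CPM in the BZ and 0.134 to 0.955 CPM in the remote zone, and the defining gene MPO had at most 1 count in any library.

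For each 100 CPM of the shared leukocyte markers, the 3 T cell markers had 2.20, 5.56, 4.29, 3.68, 6.56 and 7.99 CPM in the BZ of animals 1022, 1322, 1323, 1623, 1922 and 3622. In the remote zone they had 8.52, 7.19, 6.75, 8.12, 6.56 and 5.29 CPM. This sum was therefore, relative to leukocyte markers, lower in the BZ of animals 1022, 1322, 1323 and 1623, the same to 3 digits in 1922 and higher in 3622. In animals 1022, 1323 and 1623 the T cell marker level was higher in the BZ while this ratio was lower, whereas in 1322 both were lower and in 3622 both were higher. With CD2 left out, because NK cells carry it too, CD3D and CD3E together had 0.874 to 4.52 CPM per 100 CPM of leukocyte markers in the BZ and 3.60 to 4.82 CPM in the remote zone, and the BZ ratio was the lower one in all animals but 3622. Animal 1022 had both the highest CD3D and CD3E level and the lowest ratio in the BZ, with or without CD2.

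**Figure D4:**
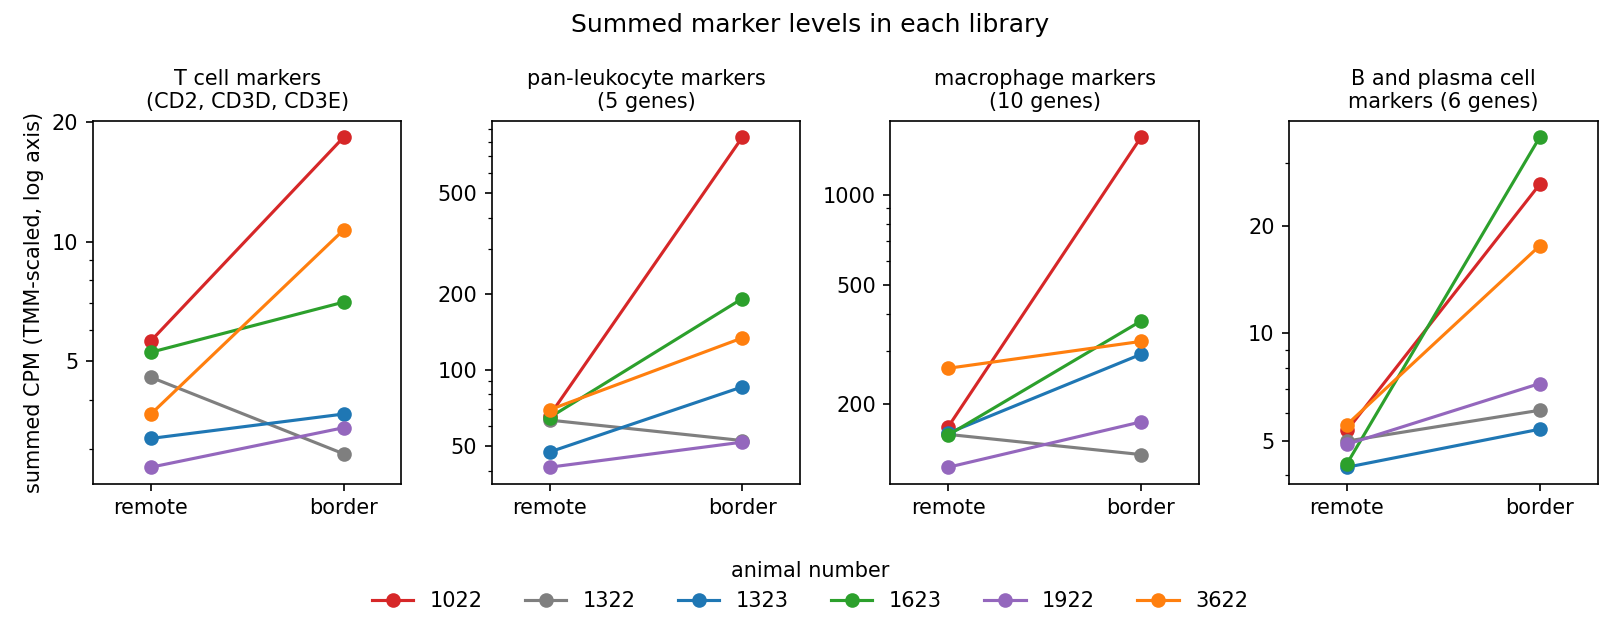
Summed CPM of marker genes (TMM-scaled, log axes that differ between panels) in the remote zone and the border zone, with 1 line for each of 6 animals. The border zone of animal 1022 is highest for T cell (18.3), leukocyte (832) and macrophage (1555) markers, and the B and plasma cell sum, most of it JCHAIN, is highest in that of animal 1623 (35.5).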

How the data were processed

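RNA sequencing of poly(A)-enriched, nondirectional libraries with paired 150 bp reads was performed on 12 samples, 6 from each region. Per the study's methods, the authors aligned reads to Sscrofa11.1 (Ensembl release 113) with STAR 2.7.10a and counted them with featureCounts 2.16.1, and the deposited values are raw counts of reads per gene, with no normalization. The options for reads that match several places are not given in the sources used here, and strand was not kept, so reads of overlapping genes on opposite strands cannot be told apart.

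Region and animal were taken from the labels, and treatment was not used. Regions were compared with edgeR 4.0.16 in R 4.3.3 by its robust quasi-likelihood test on a model of region alone, after filterByExpr and TMM scaling, with Benjamini-Hochberg adjustment over all genes tested and a threshold of 0.05. Standard errors (SE) were taken as the fold change on the log2 scale over the root of its F statistic. Log2 CPM used a prior count of 2. The step was tested on simulated data. Alternatives were the animal as a replicate block, DESeq2 1.42.0, scaling by library totals or by DESeq2 size factors, omission of the filter or a minimum of 10 counts per library, removal of mitochondrial genes, and leaving out each animal. Leaving out single libraries of animals 1022 and 3622, and the block without animal 1022, were added after seeing the data.

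Libraries with the same number share an animal and are paired by it. Across genes, the deviations of an animal's 2 libraries from their region means had a mean r of 0.345, from -0.0302 (1022) to 0.572 (1323). The genes described and the other lists were chosen with earlier results of these data known. From the other lists, the genes named were those called, the 2 with the largest and the 1 with the smallest fold change of each list, and the 8 most like the mean profile. Exceptions are marked in the text. A gene of the cytokine and chemokine list that this rule names is not reported here. Sequences, positions and transcript lengths came from the RefSeq annotation of Sscrofa11.1, read with pysam 0.24.0. PCR copies cannot be told apart from separate molecules, so limits from counts cover counting error only. P-values of the main fit measure the spread between the libraries of a region, each from a different animal, and leave the pairing unused. With the replicate block, p-values measure the spread of the differences within animals.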

Additional observations from a re-analysis of the deposited data

Results flagged for a closer look

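Of 16 groups of 6 libraries (8 genes in each region), 1 held a library far from the other 5 on the log2 CPM scale. CD4 in the border zone of animal 1022 was at 3.52, or 11.4 CPM, while the next library was at 2.10, and this gap was 0.685 of the range of the group, above the critical value of 0.625 for 6 samples. Chance marks about 1 in 20 groups. The CD4 log2 fold change was 0.48 with this library and -0.00116 without it.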

How the results depend on the processing

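Of the 8 T cell and NK cell genes, 0 were called by edgeR with region as the only term, with the animal as a replicate block, by DESeq2 or under any other alternative run. Of 132 log2 fold changes of single genes under the alternatives, 130 kept their sign and 2 did not, and both were those of CD4, at -0.0762 without animal 1022 and -0.00116 without the border zone library of animal 1022. With each animal left out, CD4 ran from -0.0762 to 0.81. The number of all genes called was 287, against 41 with the replicate block, 1719 by DESeq2, 1551 with library totals, 139 with no filter, 149 with at least 10 counts in every library and 856 with the replicate block and animal 1022 left out, and 0 to 519 with each animal left out. The median of the 8 genes was 0.27 without the border zone library of animal 1022 and that of the 7 tested without GZMB was 0.25 with the replicate block and animal 1022 left out. Without animal 1623 and without animal 3622 edgeR called 0 genes, with 2662 and 2448 at an unadjusted p under 0.05. The 2 fits that left out a library of animal 3622 called 156 genes (border zone) and 48 (remote zone). Library totals in place of TMM factors moved the median of all genes from 0.04 to 0.32 and the median of the 8 genes from 0.56 to 0.91, and the cause of these changes was not tested. GZMB was not tested under a minimum of 10 counts per library, nor without animal 1022 or 1623, because it then lay under the filter. Depth limits GZMB most, at 0 to 38 counts per library.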
